A study of Homo sapiens with 8 samples.

Results

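Ribosomal protein genes were followed in the human embryonic stem cell lines H1 and H9, both long established, before and after their aggregation into embryoid bodies (EB). The genes form 2 sets, the cytosolic ribosome and the mitochondrial ribosome. They were found by symbol: names of the RPL and RPS type, with RPLP0 to RPLP2 and RPSA, for the cytosolic set, and names of the MRPL and MRPS type for the mitochondrial set. Y-linked genes and pseudogenes were left out, and a probe set counted only when it was annotated to a single symbol. This gave 134 of 19775 genes on the array, 59 cytosolic and 75 mitochondrial, each read by its brightest probe set. A further 25 cytosolic and 2 mitochondrial genes of RefSeq had no probe set with a single symbol and were not analysed here; RPL10, RPL13A, RPLP0 and RPSA are among them.

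RNA was measured on 8 Affymetrix U133 Plus 2.0 arrays, 2 for each of 4 groups, which are the undifferentiated cells and the EB of each line. Undifferentiated cells grew in mTeSR1, a defined medium for pluripotent cells. EB were made from cells dissociated with Accutase and held for 3 days on low-attachment plates, in medium lacking bFGF and containing the compound Y-27632 at 10 µM. Cell state, medium, attachment and compound change together and cannot be told apart. The labels call the arrays of a group biological replicates without naming their cultures, so p-values measure the spread between these samples, which may be technical. Values are MAS5 intensities, and all 8 arrays share a 2% trimmed mean of 500.1.

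A check of the labels preceded the comparisons. CRYZ, a quinone oxidoreductase gene, read 3839 in undifferentiated H1 and 4334 in H1 EB but only 40.1 in undifferentiated H9, and it stood at 1395 on the arrays labelled H9 EB. TYW3, its neighbour in the genome, likewise read 1319, 1144, 27.6 and 309 in that order. On those 2 arrays both genes thus lay above undifferentiated H9 and below H1, which puts the line label of the arrays in doubt. Whether these arrays hold some H1 material or are mislabelled, or whether H9 EB express these genes, was not tested. Every line difference that involves EB rests on these arrays, and so does every agreement between the lines in the EB change. The main results of the sets are also given for H1, whose means do not use these arrays. Many results for single genes, probe sets, motifs and related lists are given only as averages over the lines, which do use them. The tests in H1 also take their residual variance from a fit to all arrays. Of the pluripotency markers, 6 of 6 measured fell in EB, and their summed intensity of 95461 to 103361 in undifferentiated cells dropped to 68556 to 78776. Endoderm markers rose in 6 of 6 cases, from a sum of 710 to 854 to a sum of 33997 to 51579. Of 6 fibroblast markers 4 rose and 1 fell, and their sum went from 14011 to 19378 in undifferentiated cells to 32146 to 34484 in EB. The part of this change in cell makeup in the ribosomal results was not tested, and fewer cells of a type cannot be told apart from less RNA per cell.

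The cytosolic ribosome makes the bulk of a cell's protein, and its proteins are encoded in the nucleus by some of the most highly expressed genes known. Many of their mRNAs start with a cytosine followed by a run of pyrimidines, the 5′ terminal oligopyrimidine (TOP) tract, through which growth signalling by mTORC1 and the RNA-binding protein LARP1 sets their translation and stability. The mitochondrial ribosome is a separate machine with nuclear-encoded proteins that are imported into the organelle, where it translates the few mRNAs of mitochondrial DNA, which encode core subunits of the respiratory chain. Pluripotent cells are known for large nucleoli, fast growth and a metabolism that leans on glycolysis.

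The sequences around the annotated starts differ between the 2 sets. RefSeq promoter windows (GRCh38.p14, 250 bases before and 50 after the start) matched 118 of the 134 genes, 51 cytosolic and 67 mitochondrial. Each sequence printed here runs 5′ to 3′ on the strand of its gene, from 30 bases before the start to 25 bases from it on. In the first group capitals mark the pyrimidine run that begins at the first transcribed base. They are RPL36 and RPL12, which had the largest falls among canonical cytosolic members, and RPL39, whose run of 19 pyrimidines is long. RPL22 and RPS27 are shown because they are set against paralogs, and RPL22L1 because it fell most.
RPL36: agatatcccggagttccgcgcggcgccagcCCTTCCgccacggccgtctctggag
RPL12: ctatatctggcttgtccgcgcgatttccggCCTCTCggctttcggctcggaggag
RPL39: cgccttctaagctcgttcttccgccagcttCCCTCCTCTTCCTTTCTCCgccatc
RPL22: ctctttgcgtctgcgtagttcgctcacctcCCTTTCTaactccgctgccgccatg
RPS27: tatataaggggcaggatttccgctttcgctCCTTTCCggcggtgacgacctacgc
RPL22L1: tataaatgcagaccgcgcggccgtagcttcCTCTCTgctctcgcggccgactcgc
The windows lie at chr19:5690265-5690319 on the plus strand (RPL36), chr9:127451382-127451436 on the minus strand (RPL12), chrX:119791606-119791660 on the minus strand (RPL39), chr1:6199571-6199625 on the minus strand (RPL22), chr1:153990732-153990786 on the plus strand (RPS27) and chr3:170870171-170870225 on the minus strand (RPL22L1).

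The paralogs RPS27L, RPL7L1 and RPL10L had no such run at the annotated start, so these sequences carry no capitals.
RPS27L: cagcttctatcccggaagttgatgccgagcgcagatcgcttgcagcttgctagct
RPL7L1: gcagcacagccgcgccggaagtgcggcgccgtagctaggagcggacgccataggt
RPL10L: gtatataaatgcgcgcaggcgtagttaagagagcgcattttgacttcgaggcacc
They lie at chr15:63157453-63157507 on the minus strand (RPS27L), chr6:42879586-42879640 on the plus strand (RPL7L1) and chr14:46651757-46651811 on the minus strand (RPL10L).

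The mitochondrial genes MRPL58, MRPS34 and MRPL54 had the largest falls of their set, and MRPL42 had the smallest p-value in it. In these, capitals mark CCGGAAG, the core bound by ETS factors such as GABPA, and ATGGCGG, the core of YY1 sites, on either strand; no pyrimidine run begins at their start.
MRPL58: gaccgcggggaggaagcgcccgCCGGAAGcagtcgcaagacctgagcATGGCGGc
MRPS34: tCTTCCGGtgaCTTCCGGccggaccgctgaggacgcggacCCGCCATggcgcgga
MRPL54: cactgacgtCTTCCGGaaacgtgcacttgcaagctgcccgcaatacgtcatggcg
MRPL42: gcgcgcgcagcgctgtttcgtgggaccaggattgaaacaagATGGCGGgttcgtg
They lie at chr17:75012640-75012694 on the plus strand (MRPL58), chr16:1773110-1773164 on the minus strand (MRPS34), chr19:3762652-3762706 on the plus strand (MRPL54) and chr12:93467484-93467538 on the plus strand (MRPL42).

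A run of at least 5 pyrimidines starting with C at the first base was present in 34 of 51 cytosolic genes (66.7%), in 4 of 67 mitochondrial genes (5.97%) and in 4.04% of all 27305 promoter windows. CCGGAAG was found in 37.3% of cytosolic, 41.8% of mitochondrial and 10.7% of all windows. ATGGCGG was in 34.3% of mitochondrial windows against 13.7% of cytosolic and 5.72% of all windows. TCTCGCG was in 19.6% of cytosolic, 5.97% of mitochondrial and 3.53% of all windows, and GCATGCG in 7.84%, 10.4% and 4.13%. TATAAA was present in 9.8%, 2.99% and 12%, the E-box CACGTG in 5.88%, 8.96% and 7.43%, CCAAT in 29.4%, 29.9% and 35.7%, and the GC-box core GGGCGG in 52.9%, 59.7% and 44.6%, in the same order. All motifs other than the run were searched on both strands of the 300-base window, and ATGGCGG can overlap the start codon. These matches describe the letters and do not show binding.

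Averaged over the lines, EB had lower intensities than undifferentiated cells for most genes of both ribosomes, and the mitochondrial set was lower by more. The sets were read at unlike brightness, with median intensities of 23278 (cytosolic) and 2784 (mitochondrial). Whether brightness affects the size of their changes was not tested. As deposited, 50 of 58 tested cytosolic genes fell, 2 rose and 6 did not pass the test (limma adjusted p under 0.05), where 33.1% of all 14056 tested genes fell and 35.4% rose. One of the 2 that rose, RPL36A, passed the filter on dim genes only through its EB arrays, so its count as a rise follows from the filter; with a filter on the mean over all arrays, 50 of 57 fell and 1 rose. Of the 75 mitochondrial genes, 66 fell, 0 rose and 9 did not pass. The median log2 change was -0.19 for the cytosolic set (quartiles -0.25 and -0.13) and -0.40 for the mitochondrial set (quartiles -0.56 and -0.26), beside 0.010 for all genes. Both subunits had similar medians: large and small subunit medians were -0.20 and -0.18 in the cytosolic set and -0.44 and -0.37 in the mitochondrial set. Taken by line as deposited, the cytosolic and mitochondrial medians were close in H1, at -0.33 and -0.38. They lay apart on the arrays labelled H9, at -0.070 and -0.45. Quantile normalization gives every array the same distribution of intensities. Cytosolic genes lie at its top, where this step draws a change they share toward 0, so it cannot test their fall. After this step the mitochondrial result averaged over the lines remained and most of the cytosolic one did not. Then 64 mitochondrial genes fell and 0 rose (median -0.35), while 24 cytosolic genes fell and 5 rose (median -0.027), against 36.7% of all genes lower and 31% higher (median -0.055). The same 64 mitochondrial genes fell on both scales, but only 23 of the 50 cytosolic genes did. The 3 cytosolic genes that rose only after quantile normalization were RPL10A, RPL24 and RPL41.

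The intensities on each array show where the sets part. The median cytosolic intensity was 25039 and 25812 in undifferentiated H1, 20240 and 19965 in H1 EB, 25856 and 23946 in undifferentiated H9 and 24195 and 22955 on the arrays labelled H9 EB. Both H1 EB arrays were lower than the other 6, and the H9 groups overlapped. The median mitochondrial intensity was 3180 and 3012 in undifferentiated H1, 2298 and 2358 in H1 EB, 3190 and 3184 in undifferentiated H9 and 2348 and 2333 on the arrays labelled H9 EB. All 4 EB arrays were lower than all 4 undifferentiated arrays, in both lines. After quantile normalization the cytosolic medians lay between 22857 and 24164, while the mitochondrial medians were 2961 to 3130 in undifferentiated cells and 2315 to 2401 in EB.

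**Figure D1:**
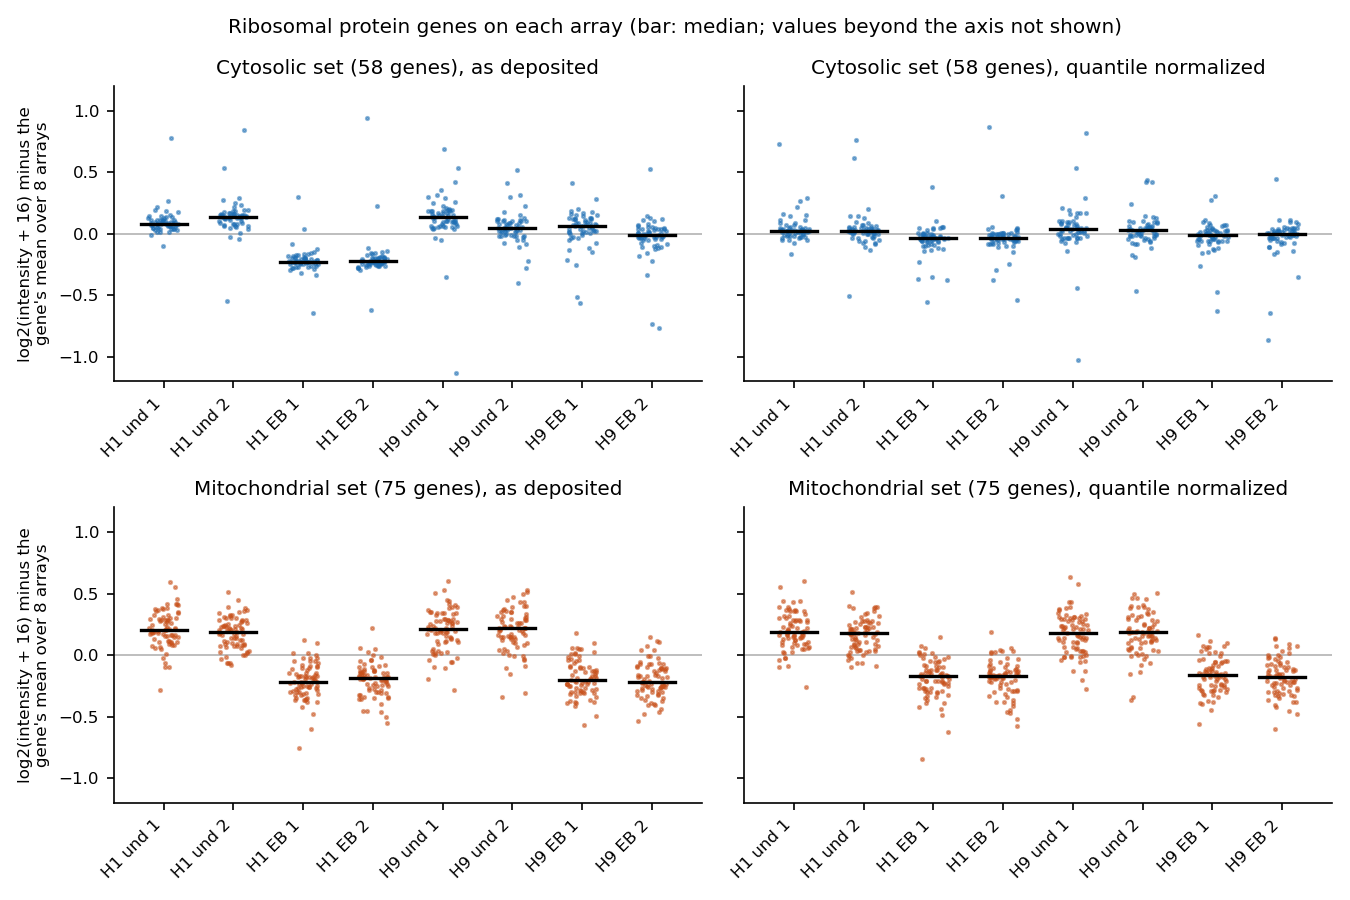
Each point is a gene on 1 array, plotted as log2(intensity + 16) minus the mean of that gene over the 8 arrays, and each bar is the median of the 58 cytosolic genes (top) or 75 mitochondrial genes (bottom), as deposited (left) and quantile normalized (right). The cytosolic bars drop on the H1 EB arrays as deposited and come near 0 after quantile normalization, whereas the mitochondrial bars are low on all 4 EB arrays (labels as deposited) on both scales.

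Gene by gene, the 4 EB arrays lay below the 4 undifferentiated arrays without overlap for 60 of 75 mitochondrial genes (80%) and 24 of 58 cytosolic genes (41.4%), against 24.5% of all genes; no gene of either set lay above without overlap, as 27.1% of all genes did. With quantile normalization the counts were 56 mitochondrial (74.7%) and 17 cytosolic genes (29.3%), against 26.8% of all genes, so the cytosolic share was near that of all genes. On this scale 1 cytosolic and 0 mitochondrial genes lay above without overlap, against 23.7% of all genes. Calls in H1 and on the arrays labelled H9 were also combined, so their agreement rests on the line label in doubt. A fall in both H1 and H9 was called for 55 mitochondrial genes (73.3%) and 17 cytosolic genes (29.3%), against 19.8% of all genes, and for 46 (61.3%) and 10 (17.2%) after quantile normalization, against 21% of all genes.

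**Figure D2:**
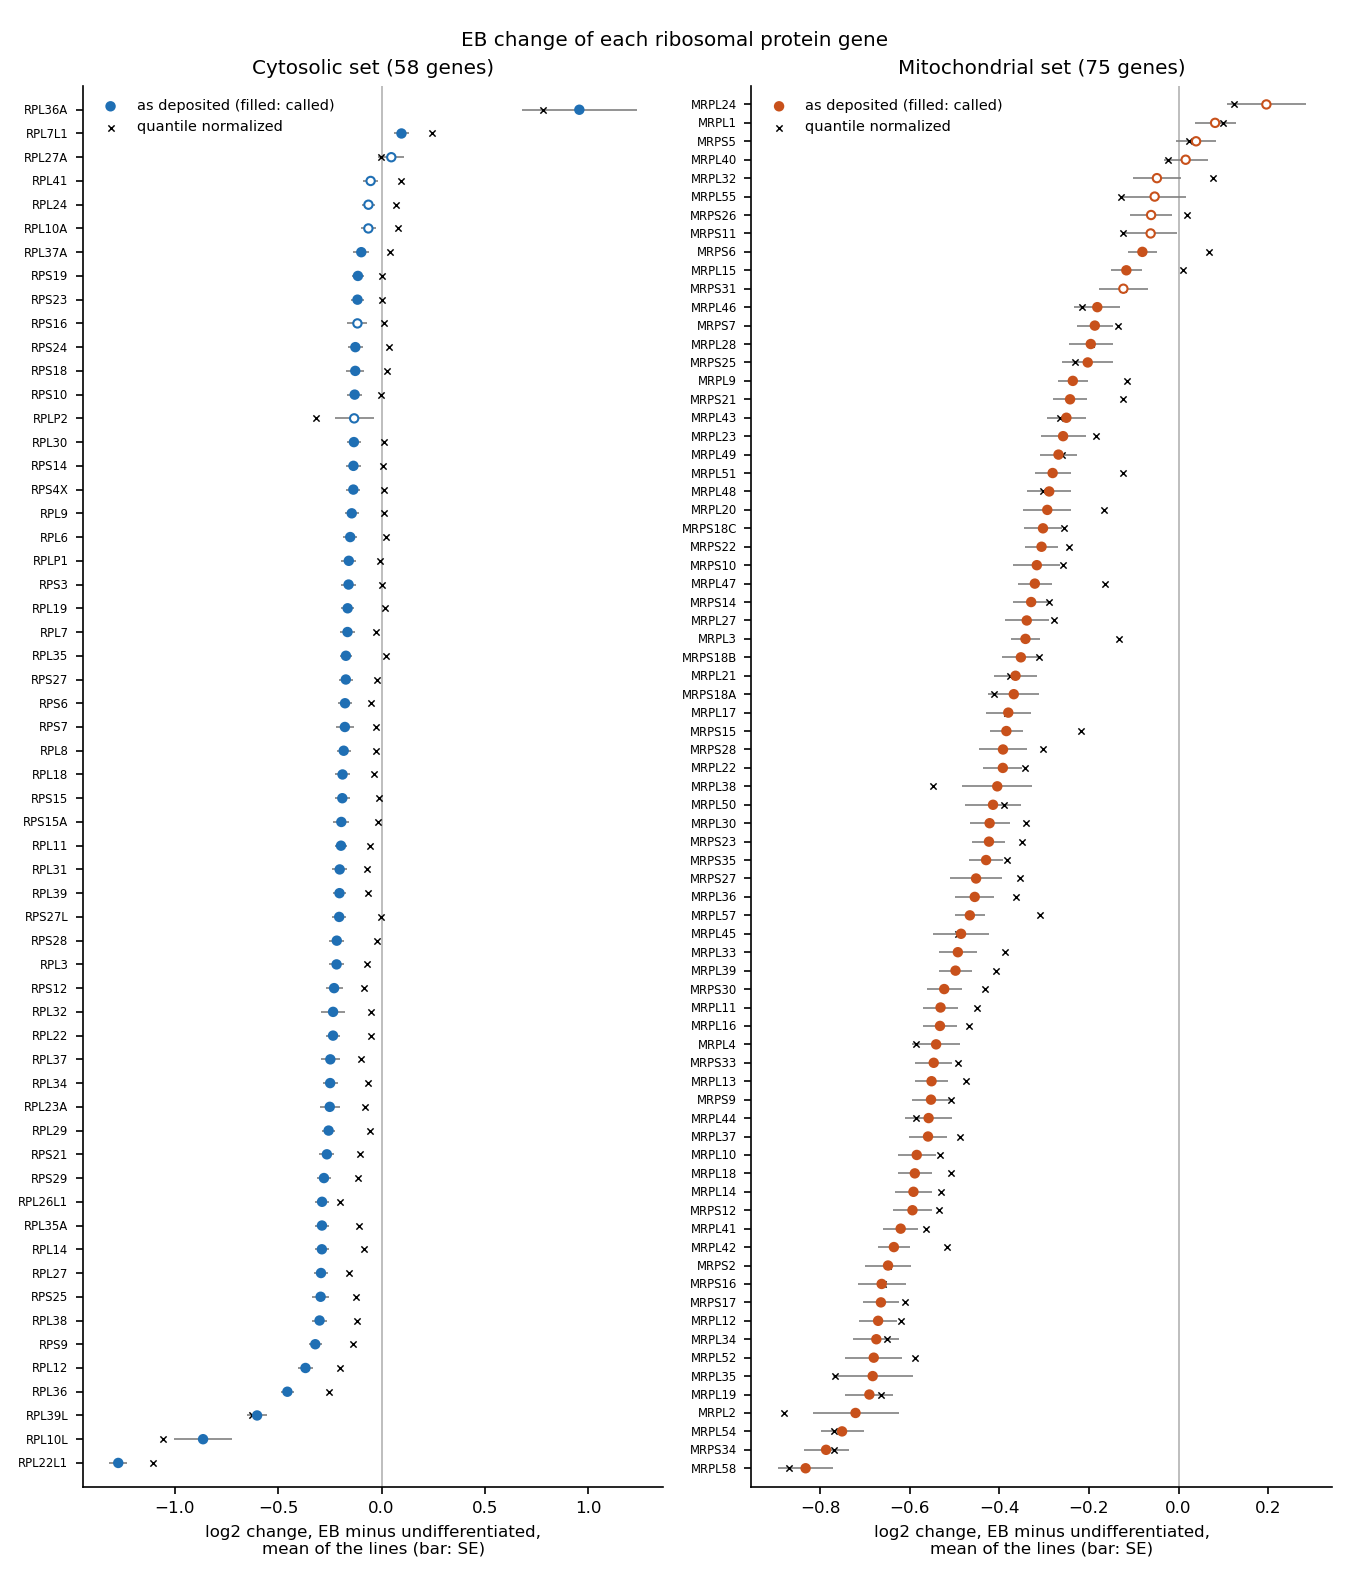
The log2 change from undifferentiated cells to EB, averaged over the lines, is drawn for every tested gene with its SE (bar); filled circles passed the limma test as deposited, open circles did not, and crosses give the change after quantile normalization. Most cytosolic crosses sit near 0, to the right of their circles, and the L paralogs RPL22L1, RPL10L and RPL39L lie at the bottom on both scales; the mitochondrial genes spread from MRPL58 at -0.83 to MRPL24 at 0.20.

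In H1, whose means use no doubtful array, 55 of 58 cytosolic genes and 65 of 75 mitochondrial genes fell and 0 rose in either set, against 28.1% of all genes lower and 29.6% higher. The medians were -0.33 and -0.38. On the arrays labelled H9, 18 cytosolic genes fell and 4 rose (median -0.070) and 59 mitochondrial genes fell and 1 rose (median -0.45), against 29% lower and 31.6% higher among all genes. Without both arrays labelled H9 EB, the mean EB comparison rests on H1 and called 55 cytosolic and 64 mitochondrial genes lower. After quantile normalization 17 cytosolic genes fell and 2 rose in H1 (29.5% and 27.2% of all genes), and 18 fell and 8 rose on the arrays labelled H9 (32.5% and 28%), with medians of -0.046 and -0.051. The mitochondrial medians were then -0.35 and -0.39, with 56 and 55 genes lower.

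The difference of the EB effect between the lines was itself tested. As deposited, 37 cytosolic genes had a higher EB effect in H9 than in H1 and 1, RPL39L, a lower one, with a median difference of 0.26 on the log2 scale, where 11.5% of all genes were higher and 11.2% lower. In the mitochondrial set 6 were higher and 8 lower, with a median of 0.036. After quantile normalization the cytosolic counts were 7 higher and 4 lower with a median of 0.024, against 10.7% and 11.9% of all genes; the mitochondrial counts were 8 and 6. Among EB alone, 44 cytosolic genes were higher on the arrays labelled H9 EB than in H1 EB and 1 was lower, with a median of 0.25 and against 8% of all genes higher and 7.31% lower. After quantile normalization these counts were 5 and 2, against 8.03% and 8.45%. The line difference of the cytosolic set depended on single arrays: with one array left out it was called for 19 to 39 genes, the lowest counts being without H1 EB replicate 1 and without H9 EB replicate 1, and without H1 undifferentiated replicate 2 and H1 EB replicate 2 it was called for 22 and 21. For the difference between EB the count was 13 without H9 EB replicate 1, 24 without H1 EB replicate 1 and 23 without H1 EB replicate 2. The 14 mitochondrial line differences came to 8 without H1 EB replicate 1, without H9 EB replicate 1 and without H9 EB replicate 2.

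Cytosolic ribosomal genes occupy the top of the array's range, and the other genes in the middle of their range had similar medians. Of the 100 brightest probe sets, 54 carried a cytosolic ribosomal symbol, 30 of them as the single symbol, and 0 carried a mitochondrial one as the single symbol. The intensity exceeded by the top 0.1% of probe sets was 29025 and 30392 in undifferentiated H1, 24215 and 24035 in H1 EB, 29964 and 28124 in undifferentiated H9 and 29825 and 28222 on the arrays labelled H9 EB, so it dropped on the same arrays as the cytosolic median. Cytosolic genes make up much of this upper end, so it is not a measure separate from their median. Quantile normalization sets the upper end equal by construction. In the middle 50% of the cytosolic intensity range (19688 to 26939), 41 genes outside both sets had a median log2 change of -0.18 averaged over the lines, beside -0.19 for the 28 cytosolic genes there, and 73.2% of them fell, beside 92.9%. Their median was -0.29 in H1, beside -0.33, and -0.050 on the arrays labelled H9, beside -0.076. In the wider range from the 10th to the 90th percentile (5945 to 30312), which reaches down to dimmer genes, 858 other genes did not share the medians of the 46 cytosolic ones: theirs was -0.24 in H1, beside -0.34, -0.23 on the arrays labelled H9, beside -0.086, and 0.028 for the line difference, beside 0.25. In the middle 50% of the mitochondrial range (1819 to 3667), 1795 other genes had a median of -0.093, beside -0.43 for 37 mitochondrial genes, and 47% of them fell, beside 89.2%. With quantile normalization these mitochondrial-range medians were -0.054 and -0.39. The part of array scale in the cytosolic change was not tested further, and these shares describe the lists without a test.

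**Figure D3:**
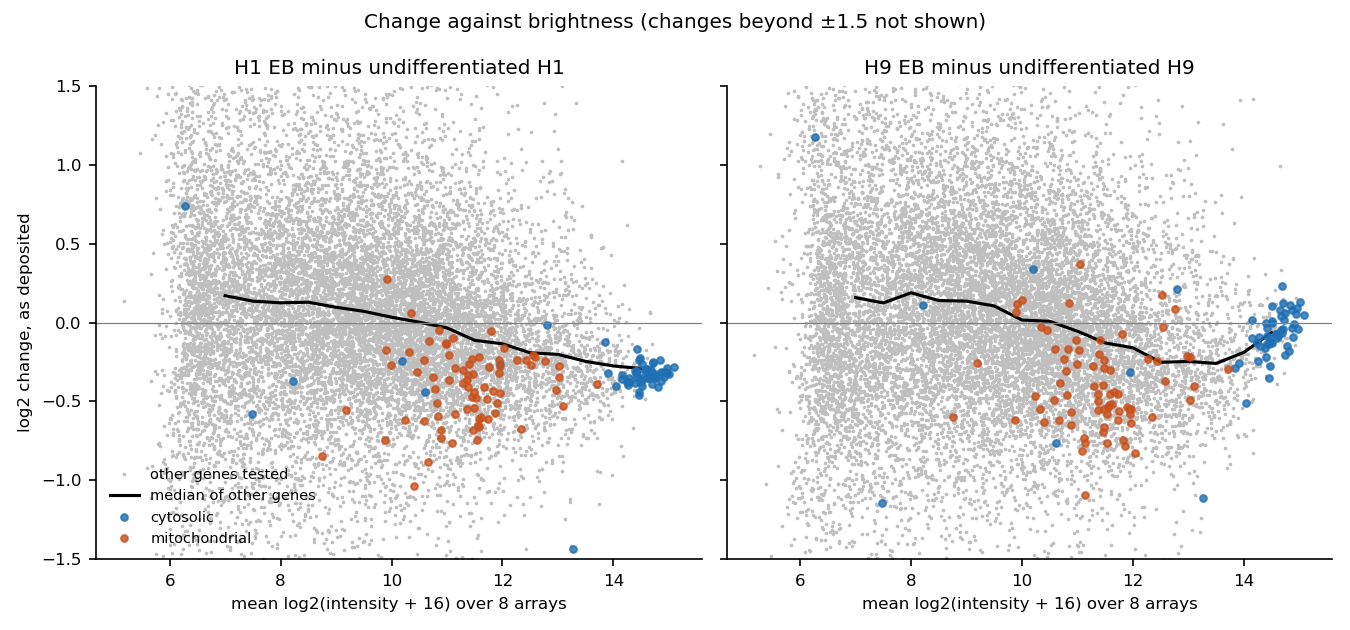
The log2 change as deposited is plotted against the mean log2(intensity + 16) over 8 arrays for every tested gene, in H1 (left) and in the arrays labelled H9 (right); the black line is the running median of genes outside both sets. Cytosolic genes (blue) cluster at the bright end near the running median in both panels, while mitochondrial genes (orange) lie mostly below the line in both. The line follows genes of like brightness only, and over the wider cytosolic range other genes had different medians.

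Within the canonical cytosolic set, changes were small. RPL36, a large subunit protein, had intensities of 18250 and 18762 in undifferentiated H1, 13922 and 14126 in H1 EB, 21660 and 20759 in undifferentiated H9 and 15289 and 14458 on the arrays labelled H9 EB. All EB arrays were below all undifferentiated arrays, with a log2 change of -0.46 ± 0.033 (SE) as deposited and -0.25 after quantile normalization (limma adjusted p = 2.99e-07 and 2.5e-06). RPL12, which sits at the base of the stalk that recruits translation factors, read 25646 and 26547, then 18829 and 19119 in H1, and 26150 and 24492, then 21456 and 20328 on the arrays labelled H9. Its groups did not overlap either, and the change was -0.37 ± 0.034 as deposited and -0.20 after quantile normalization. RPS9, RPL38 and RPS25 followed with -0.32, -0.30 and -0.29 as deposited and -0.14, -0.12 and -0.12 after quantile normalization. RPS9 binds early in the assembly of the small subunit, RPL38 is known for a role in translating Hox mRNAs, and RPS25 for one in initiation at internal ribosome entry sites. All 5 were called lower on both scales averaged over the lines. RPS25 after quantile normalization had a change of 0.052 in H1, which did not pass the test, so its fall there rests on the arrays labelled H9. RPL36 and RPL38 lost their calls with the mean of all probe sets (-0.21 and -0.082, adjusted p = 0.403 and 0.149), and RPL38 also without probe sets of the _x_at type (-0.016, adjusted p = 0.832).

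The cytosolic genes that did not pass the test as deposited were RPL10A, RPL24, RPL27A, RPL41, RPLP2 and RPS16, with changes between -0.13 and 0.047. RPL41, the shortest protein of the ribosome, read 27474 and 29837 in undifferentiated H1 and 22923 and 22440 in H1 EB, but 25584 and 24375 in undifferentiated H9 and 29868 and 28739 on the arrays labelled H9 EB. As deposited it thus fell by 0.34 in H1 and rose by 0.23 on the arrays labelled H9. RPL27A did the same at a lower intensity, with 1269 and 1189 against 1007 and 1066 in H1 and 1115 and 991 against 1411 and 1257 on the arrays labelled H9. RPL27A, RPLP2 and RPL36A are read here by probe sets far below the level of their set, because their other probe sets carry several symbols. The acidic stalk protein RPLP2 read 227 to 331 over all 8 arrays, and its stalk partner RPLP1, read by a bright probe set, changed by -0.16 ± 0.036.

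The 2 cytosolic genes counted as higher were RPL36A and RPL7L1. RPL36A read 63.6 and 36.6 in undifferentiated H1, 63.1 and 132 in H1 EB, 19.1 and 47.5 in undifferentiated H9 and 86.5 and 94.8 on the arrays labelled H9 EB. It was below its array's median on all 4 undifferentiated arrays and above it on 3 of 4 EB arrays, so it entered the test only through the group where it is high, and no p-value is given. Its EB mean was 1.27-fold the level of the undifferentiated array medians. The medians of the EB arrays were themselves higher than those of the undifferentiated arrays, so this ratio sets no bound on the change. In H1 its groups overlapped, with 63.1 on an EB array and 63.6 on an undifferentiated one. RPL7L1, a paralog of RPL7 linked to ribosome assembly, changed by 0.097 ± 0.037 as deposited and 0.24 after quantile normalization. It lost its call when any of 5 arrays was left out (H1 undifferentiated replicates 1 and 2, H1 EB replicate 1, H9 undifferentiated replicate 2, H9 EB replicate 2), with changes of 0.071 to 0.10. With both arrays labelled H9 EB left out its change was -0.018, and with arrays centred on their medians it was -0.10.

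The largest cytosolic falls belonged to RPL22L1, RPL10L and RPL39L, paralogs with an L in their name. Such genes are related to a canonical gene, and the proteins of some can take its place in ribosomes. Not all of them fell this much: averaged over the lines as deposited, RPL26L1 and RPS27L fell by less and RPL7L1 did not fall. RPL22L1, the paralog of RPL22 (chr3:170864875-170870195), read 16879 and 17620 in undifferentiated H1, 6308 and 6411 in H1 EB, 13166 and 14068 in undifferentiated H9 and 6675 and 5927 on the arrays labelled H9 EB. Every EB array was less than the lowest undifferentiated one by a wide gap, with a log2 change of -1.27 ± 0.044 as deposited and -1.11 ± 0.043 after quantile normalization (limma adjusted p = 7.4e-10 and 3.7e-09). RPL22 itself read 22131 to 24479 in undifferentiated cells and 18226 to 21490 in EB, a change of -0.24 ± 0.034 that did not pass after quantile normalization (-0.050, adjusted p = 0.066). The RPL22L1 effect was weaker on the arrays labelled H9, by 0.33 ± 0.087 (adjusted p = 0.0219).

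RPL39L, the paralog of the exit tunnel protein RPL39 and best known from testis, read 1711 and 1676 in undifferentiated H1, 1218 and 1268 in H1 EB, 2235 and 2054 in undifferentiated H9 and 1289 and 1223 on the arrays labelled H9 EB. The groups did not overlap, and the change was -0.60 ± 0.049 as deposited and -0.63 ± 0.049 after quantile normalization, beside -0.20 and -0.064 for RPL39. RPL10L, a testis paralog of RPL10 read at low intensity, gave 188 and 243 against 133 and 143 in H1 and 273 and 206 against 109 and 88.9 on the arrays labelled H9. It fell by 0.86 ± 0.14, and RPL10 had no probe set of its own here. RPL26L1 read 4165 to 4503 in undifferentiated cells and 3483 to 3608 in EB, a change of -0.29 ± 0.036 as deposited and -0.20 after quantile normalization.

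RPS27L, a p53 target and paralog of RPS27, read 13737 and 14465 in undifferentiated H1, 13029 and 12893 in H1 EB, 18316 and 17237 in undifferentiated H9 and 14778 and 14308 on the arrays labelled H9 EB, and its EB and undifferentiated arrays overlapped. Its change was -0.20 ± 0.035 as deposited and -0.0019 after quantile normalization, when it no longer passed, nor did it with the arrays labelled H9 EB left out (-0.12, adjusted p = 0.071). RPL3L, the muscle paralog of RPL3, was the one member below the filter on dim genes: it read 2.92 to 38.2 and was below the array median on all 8 arrays. Paralogs are close in sequence, and the probe sets of RPL7L1, RPL12, RPL22, RPL3 and RPL7 are of the type that can cross-hybridise.

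**Figure D4:**
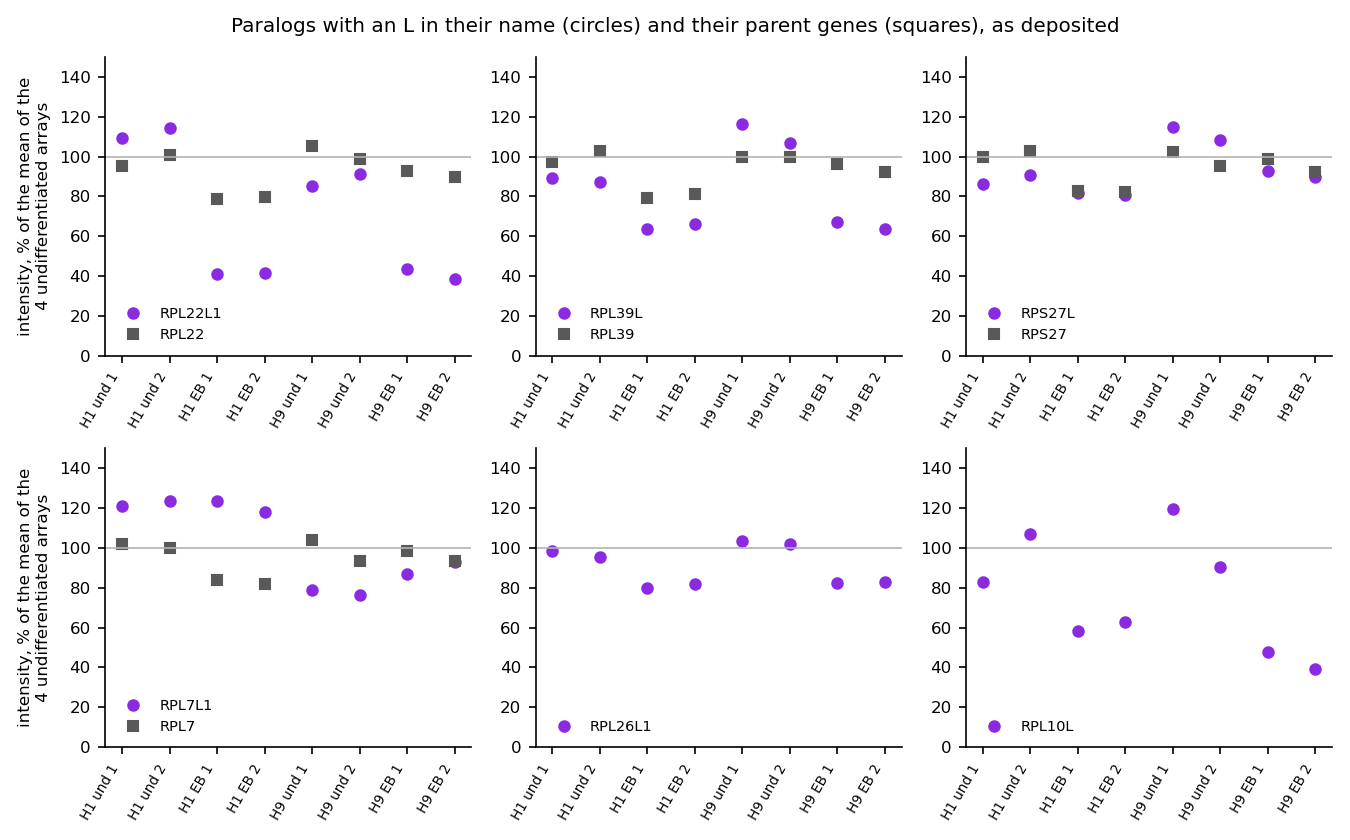
Intensity as deposited is shown for each array as a percent of the mean of the 4 undifferentiated arrays, for paralogs (circles) and their parent genes (squares); RPL26 and RPL10 had no usable probe set. RPL22L1 lies near 40 on all 4 EB arrays while RPL22 lies at about 80 to 95, and the RPL7L1 circles of H1 lie above those of H9 in both states.

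Cytosolic genes with and without a pyrimidine run at the start had close medians. The 34 genes with a pyrimidine run had a median log2 change of -0.17 as deposited and -0.044 after quantile normalization, and the 17 without one -0.20 and -0.022. Both groups spread widely, from -1.11 for RPL22L1, which has a run, to -1.06 for RPL10L, which has none, at their low ends after quantile normalization. In the mitochondrial set the medians were -0.34 for 28 genes with CCGGAAG and -0.45 for 39 without it, and -0.40 for 23 genes with ATGGCGG and -0.40 for 44 without. These splits are descriptions with no test.

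The mitochondrial falls were larger averaged over the lines, and most were called both in H1 and on the arrays labelled H9. MRPL58, a large subunit protein that can release stalled peptides, read 2022 and 1678 in undifferentiated H1, 875 and 904 in H1 EB, 1777 and 1689 in undifferentiated H9 and 1129 and 1100 on the arrays labelled H9 EB. Its arrays did not overlap, and its change was -0.83 ± 0.062 as deposited and -0.87 ± 0.060 after quantile normalization (limma adjusted p = 3.85e-07 and 2.6e-07). MRPS34, a small subunit protein in which mutations cause Leigh syndrome, read 2819 and 2828, then 1751 and 1572 in H1, and 2726 and 2998, then 1618 and 1622 on the arrays labelled H9. It changed alike in the lines, by -0.79 ± 0.050 overall and -0.77 after quantile normalization. MRPL54 read 2355 and 2290, then 1190 and 1311 in H1, and 1852 and 1883, then 1217 and 1207 on the arrays labelled H9, a change of -0.75 ± 0.048. These 3 genes come from both subunits, and each had every EB array below every undifferentiated array.

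MRPL2, a protein at the peptidyl transferase centre, read 449 to 606 in undifferentiated cells and 240 to 395 in EB, a change of -0.72 ± 0.096. MRPL35, MRPL52 and MRPL34 changed by -0.68 ± 0.089, -0.68 ± 0.064 and -0.67 ± 0.052. The MRPL35 value rests on 1 probe set of the _x_at type; its other 2 changed by -0.064 and -0.073 and were not called. MRPL12, a stalk protein that also binds the mitochondrial RNA polymerase, read 3410 to 3696 in undifferentiated cells and 2167 to 2281 in EB, and its change of -0.67 ± 0.042 was almost equal in H1 (-0.68) and on the arrays labelled H9 (-0.66). MRPL42 had 5855 to 7079 in undifferentiated cells and 3920 to 4420 in EB, with a change of -0.64 ± 0.035 and the smallest adjusted p of the set (3.69e-08). MRPL3, the brightest mitochondrial member, read 14707 to 15448 and then 11475 to 12273, a smaller change of -0.34 ± 0.031 that came to -0.13 after quantile normalization. MRPL12, MRPL42 and MRPL3 were singled out after their values were seen.

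The 9 mitochondrial genes that did not pass the test were MRPL1, MRPL24, MRPL32, MRPL40, MRPL55, MRPS5, MRPS11, MRPS26 and MRPS31. MRPL24 had the highest value, with 778 and 989 in undifferentiated H1, 1023 and 1110 in H1 EB, 915 and 883 in undifferentiated H9 and 1080 and 881 on the arrays labelled H9 EB, a change of 0.20 ± 0.088 (adjusted p = 0.068). Its groups overlapped. For MRPL1, MRPL32 and MRPS11 the EB effect differed between the lines.

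Line differences in the EB effect ran both ways in the mitochondrial set, with 6 of 75 genes higher in H9 and 8 lower. These counts do not exceed the shares of all genes, 11.5% higher and 11.2% lower, so they describe single genes and not the set. MRPL19 (chr2:75646783-75662206) read 2619 and 2258, then 1983 and 1997 in H1, and 3407 and 3231, then 1499 and 1596 on the arrays labelled H9. The H9 effect minus the H1 effect was -0.81 ± 0.11 (limma adjusted p = 0.000651), since MRPL19 fell by 0.29 in H1 and fell by 1.09 on the arrays labelled H9. MRPL33 fell by 0.16 in H1 and fell by 0.82 on the arrays labelled H9, from 4735 and 4419 to 4038 and 4140 and from 5591 and 5159 to 2968 and 3086. MRPL50 read 2377 and 2245 against 2401 and 1944 in H1, which overlap, and 2799 and 2805 against 1677 and 1683 on the arrays labelled H9. In these 3 genes the undifferentiated level was higher in H9 than in H1, and the level on the arrays labelled H9 EB was lower than in H1 EB.

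MRPL1 went the other way. It read 2413 and 2482, then 2059 and 2174 in H1, and 1716 and 1643, then 2098 and 2262 on the arrays labelled H9, so it fell by 0.21 in H1 and rose by 0.37 on the arrays labelled H9. MRPL1, MRPL17, MRPL32 and MRPS11 had a higher EB effect in H9 by 0.58, 0.43, 0.45 and 0.41; the call was lost for MRPL17 without H1 EB replicate 1 (adjusted p = 0.0517), for MRPL32 without H9 EB replicate 1 (0.0577) and for MRPS11 when any of 5 arrays was left out (up to 0.101). In the cytosolic set RPL27A, RPL41, RPS18 and RPL37A had the largest higher effects, of 0.58, 0.57, 0.47 and 0.45, and after quantile normalization RPL27A kept 0.59, RPL41 0.28 and RPS18 0.20, while RPL37A came to 0.098 and did not pass (adjusted p = 0.157). Across genes, the change in H1 and the change on the arrays labelled H9 correlated with a Spearman coefficient of 0.54 in the mitochondrial set (n = 75 genes) and 0.39 in the cytosolic set (n = 58) as deposited, and 0.59 and 0.40 after quantile normalization; genes share arrays and are not independent replicates.

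**Figure D5:**
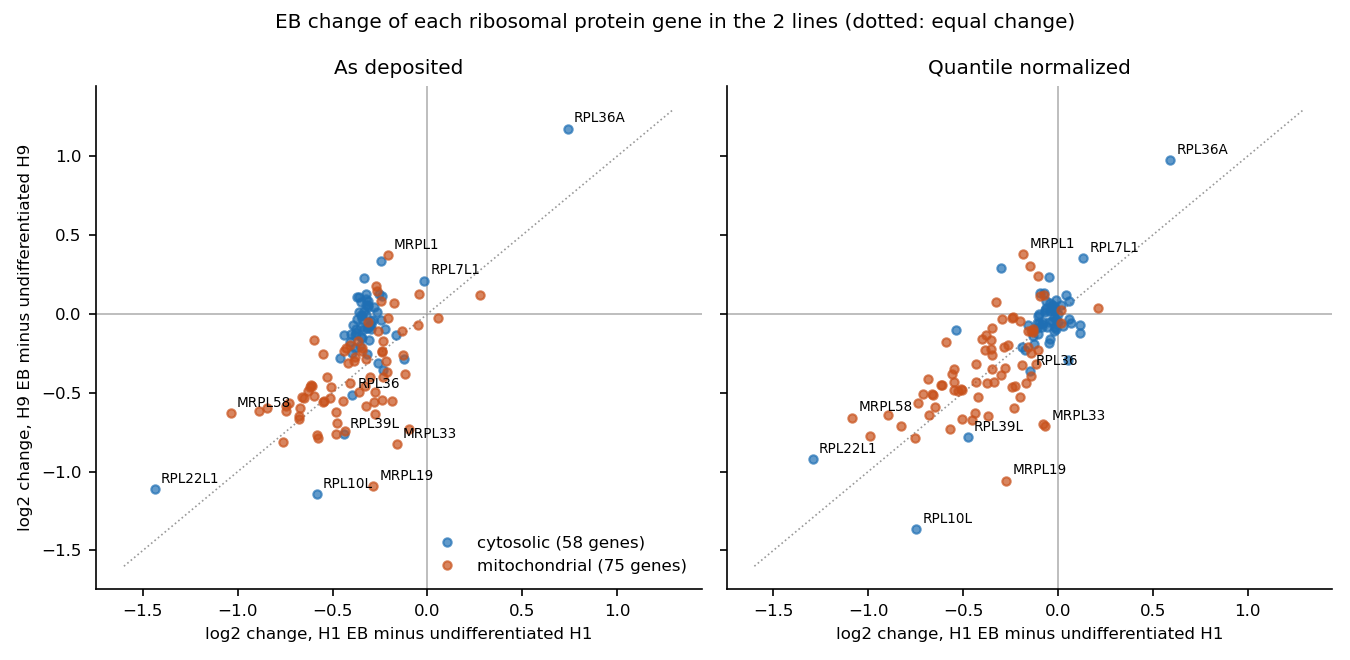
Each point is a gene, with its log2 change in H1 on the x axis and in the arrays labelled H9 on the y axis, as deposited (left) and quantile normalized (right); the dotted line marks equal change. The cytosolic cluster (blue) sits left of the line near -0.33 in H1 and -0.070 in H9 as deposited and moves to the origin after quantile normalization, while the mitochondrial genes (orange) stay in the lower left, with MRPL19 and MRPL33 lower in H9 and MRPL1 above 0 there.

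In undifferentiated cells, where the CRYZ check raised no doubt, the lines differed for 6 of 58 cytosolic genes (3 higher and 3 lower in H9) and 19 of 75 mitochondrial genes (11 higher and 8 lower), against 13.7% of all genes higher and 12.5% lower. The mitochondrial count is near that background share. RPL7L1 had 8532 and 8688 in H1 against 5561 and 5376 in H9, so H9 minus H1 was -0.65 ± 0.053 (limma adjusted p = 1.14e-05). The same difference was -0.34 for RPL22L1 and -0.20 for RPL41, and it was 0.34 for RPL39L, 0.33 for RPS27L and 0.20 for RPL36. RPL41 lost its call without H1 undifferentiated replicate 2 or H9 undifferentiated replicate 2 (adjusted p = 0.108 and 0.0739), and RPL36 without replicate 1 of either (0.0580 and 0.0593). Among mitochondrial genes MRPL19, MRPL28, MRPL52 and MRPL43 were higher in H9 by 0.45, 0.38, 0.34 and 0.34. For MRPL1, MRPL48, MRPL32 and MRPL17 H9 minus H1 was -0.54, -0.43, -0.42 and -0.40. With the mean of all probe sets, MRPL19 (limma adjusted p = 0.083), MRPL52 and RPL36 lost their calls and MRPL43 reversed. MRPL52 lost its call without H1 undifferentiated replicate 2 or either undifferentiated H9 array (adjusted p = 0.0726 to 0.139). All 6 cytosolic differences were also called after quantile normalization, when 13.7% of all genes were higher and 11.8% lower.

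Several genes were read by more than 1 probe set, and these did not always move together. Over all tested probe sets, 81 of 111 cytosolic and 93 of 131 mitochondrial ones were lower in EB and 12 and 4 higher, against 30% lower and 33.4% higher among all probe sets. After quantile normalization the counts were 48 lower and 14 higher, and 102 lower and 3 higher, against 36.4% and 27.8%. Of 30 cytosolic genes with several tested probe sets, 9 had probe sets called in opposite directions: RPL35A, RPL37, RPL37A, RPL7, RPS10, RPS14, RPS15A, RPS19 and RPS24. Of 33 mitochondrial genes, MRPL39, MRPL43, MRPS14 and MRPS25 did. In RPL7, probe sets with mean intensities of 32195 and 29892 changed by -0.16 and -0.25, and one at 88.1 by 1.29. In MRPL39 the probe set at 4043 changed by -0.50 and the one at 67.9 by 1.51, and in MRPS25 the probe set at 1528 changed by -0.20 and one at 500 by 0.90. RPL37A had probe sets at 33058, 2445 and 748 with changes of -0.098, 0.25 and 1.16.

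Genes that build or serve the ribosomes were examined as lists, described without a test; of all genes 33.1% fell and 35.4% rose, and 36.7% and 31% after quantile normalization. Of 51 tested ribosome biogenesis genes 37 fell and 3 rose; the median was -0.31 as deposited and -0.32 after quantile normalization. RRS1, which carries the 5S particle into the large subunit, changed by -0.97 ± 0.057, the nucleolar helicase DDX21 by -0.51 ± 0.031 and NHP2, an H/ACA snoRNP protein, by -0.54 ± 0.034. Of 28 cytosolic translation factor genes 22 fell and 2 rose (median -0.32, and -0.15 after quantile normalization), among them EIF5A (-0.55 ± 0.033) and the eIF2 subunits EIF2S2 (-0.52 ± 0.035) and EIF2S3 (-0.52 ± 0.040). Of 15 genes of RNA polymerase I and its factors 7 fell and 3 rose (median -0.12), beside the 33.1% of all genes that fell, with POLR1D at -0.72, POLR1G at -0.58 and TAF1D at 1.35. Ribosomal genes outside the naming pattern were also lower: RPL36AL changed by -0.60 ± 0.033 and FAU, whose product includes a small subunit protein, by -0.25 ± 0.030.

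Of 14 regulators of TOP mRNAs and growth 6 fell and 3 rose (median -0.021), near the share of all genes, of which 33.1% fell and 35.4% rose. MYC, a transcription factor that drives ribosome production, changed by -1.48 ± 0.051, EIF4EBP1, a translational repressor inactivated by mTORC1, by -1.19 ± 0.057, and LARP1 by -0.30 ± 0.031 as deposited and -0.095 after quantile normalization. On the mitochondrial side, of 5 ribosome parts outside the naming pattern 4 fell, including GADD45GIP1 (-0.66 ± 0.054), CHCHD1 (-0.58 ± 0.059) and the membrane insertase OXA1L (-0.30 ± 0.045). Of 30 genes of mitochondrial translation and ribosome assembly 16 fell and 2 rose, with a median of -0.17 that is nearer to 0 than that of the ribosomal proteins. C1QBP, TFB1M, an rRNA methyltransferase, and the assembly factor MALSU1 changed by -0.65, -0.65 and -0.42. Of 14 genes that transcribe mitochondrial DNA or handle its transcripts 9 fell and 0 rose averaged over the lines (median -0.32), but in H1 8 fell and 2 rose (3 rose after quantile normalization), against 28.1% and 29.6% of all genes. They include the mRNA stabilising partners LRPPRC and SLIRP at -0.53 and -0.48 (LRPPRC came to -0.13, adjusted p = 0.0954, with the mean of all probe sets) and the transcription factor TFB2M at -0.47.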

How the data were processed

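Total RNA of 8 samples was hybridised as biotin-labelled cRNA to 1 array each. The deposited intensities are linear and, per the submitters' processing notes, come from MAS5; the version is not given in the sources used here. Each of 19775 genes was read by its brightest probe set among 41091 with a single symbol in the platform annotation. Intensities were taken as log2(value + 16), which understates changes of low genes. A gene was tested when above the array median on at least 2 arrays (14056 genes). A linear model of the 4 groups was fitted to all 8 arrays with limma 3.58.1 under R 4.3.3 (lmFit; eBayes with trend and robust), with 4 residual degrees of freedom. Benjamini-Hochberg adjustment ran over all tested genes for each of 6 contrasts, and calls were made at an adjusted p under 0.05. Changes are log2 differences with the SE of the fit; array numbers limit their precision. The same fit was run on quantile-normalized intensities. The ratio given for a dim gene divides the EB mean by its own undifferentiated values, raised to the array median where they lie below it. It takes no account of differences between array medians.

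The members and lists were chosen with earlier results of these data known. Named genes were the 8 largest called changes per direction and set, the 4 largest line differences per direction and set, the paralogs with their parent genes, members below the filter, members with opposed probe sets, and 3 genes by p-value per related list. In simulated data of 14056 genes, 68% of changes of 0.25 and 100% of changes of 0.5, 1 and 2 in the mean EB comparison were recovered, with 11 false calls. It changed 50 genes per size, all brighter than the median tested gene, far fewer than were called in the real data. Its noise was independent between genes and held no shift shared by an array, so it cannot speak to array scale. The replicate numbers do not pair samples: deviations of replicate 1 correlated between groups at -0.046 to 0.054. For dim genes in undifferentiated cells such as RPL36A the background level is unknown, since detection calls were not used. The promoter motifs were chosen after longer forms had been looked at; 9 patterns were counted.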

Additional observations from a re-analysis of the deposited data

Results flagged for a closer look

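As deposited, a limma test of the difference itself called the EB effect different between the lines for 38 of 58 cytosolic genes. It did so for 14 of 75 mitochondrial genes. Among all genes 11.5% had a higher effect in H9 and 11.2% a lower one, so the mitochondrial count does not exceed that background. After quantile normalization the cytosolic counts, 7 higher and 4 lower, were also near the shares of all genes (10.7% and 11.9%). The 13 given here are the largest differences per direction and set. All values are the effect in H9 minus the effect in H1 on the log2 scale, as deposited, and rest on the arrays labelled H9 EB. In the mitochondrial set the differences were 0.581 for MRPL1, 0.43 for MRPL17, 0.447 for MRPL32 and 0.41 for MRPS11, and -0.806 for MRPL19, -0.663 for MRPL33, -0.636 for MRPL50 and -0.364 for MRPS18A. In the cytosolic set they were 0.58 for RPL27A, 0.452 for RPL37A, 0.566 for RPL41 and 0.469 for RPS18, and -0.322 for RPL39L. With 1 array left out, RPL39L and MRPS18A lost their calls in 7 of 8 cases each, MRPS11 in 5, and MRPL17 and MRPL32 in 1; the other 8 genes kept theirs. After quantile normalization the differences of the other 12 genes were still called, and that of RPL37A was 0.0984 (adjusted p = 0.157).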

How the results depend on the processing

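In every alternative run, 57 to 73 mitochondrial genes were lower on average, while the size of the cytosolic fall depended on the normalization. The median log2 change of the cytosolic set (-0.19) was -0.027 after quantile normalization, -0.39 with arrays centred on their medians and -0.33 without the arrays labelled H9 EB; that of the mitochondrial set (-0.40) was -0.35, -0.60 and, with the mean of all probe sets, -0.35. Centring brought the median of all genes from 0.010 to -0.19 and its calls to 3476 higher and 6577 lower. With an array left out these medians ran from -0.21 to -0.16 and from -0.42 to -0.39. Cytosolic calls changed as follows. With quantile normalization, 24 genes were lower on average (50 in the main setting) and 17 in H1 (55). Centring gave 48 lower on the arrays labelled H9 (18), and leaving out an array 12 to 24. The 38 line differences became 11 with quantile normalization, 21 with centring, 20 with the mean of probe sets, 7 with plain eBayes and 19 to 39 with an array left out; the 45 differences between EB became 7 with quantile normalization, 24 with the mean of probe sets, 5 with plain eBayes and 13 to 46 with an array left out. The 6 differences between undifferentiated lines became 10 with the mean of probe sets. In the mitochondrial set, the 14 line differences became 5 with plain eBayes and 8 to 14 with an array left out. The 19 between undifferentiated lines became 12 with plain eBayes. The 8 between EB became 5 with centring, with no filter and with the mean of probe sets, 1 with plain eBayes and 1 to 9 with an array left out. The cause was not tested.

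Reversals with the mean of all probe sets were RPL7 (0.29), RPL37A (0.44), RPS14 (0.30), RPS15A (0.071), RPS19 (0.089), RPS24 (0.15), MRPL39 (0.51), MRPL43 (0.23, and -0.53 between undifferentiated lines), MRPS25 (0.27) and MALSU1 (0.088). Quantile normalization reversed RPL37A (0.040), RPS14 (0.0088), RPS19 (0.0046) and RPS24 (0.038). RPL7 was 1.29 without probe sets of the _x_at type, and RPL7L1 was -0.10 with centring and -0.018 without the arrays labelled H9 EB. Of 1858 values for named genes over 20 alternative settings, 1751 kept direction and call, 89 lost the call and 18 reversed. With the replicate number as a block, 50 cytosolic and 65 mitochondrial genes were lower on average. Genes called higher went from 2 to 1 in the cytosolic set, RPL7L1 losing its call (adjusted p = 0.0526), and from 1 to 2 in the mitochondrial set on the arrays labelled H9; the other counts by set and direction moved by less than 1.5 times.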
